A study of Schizosaccharomyces pombe with 4 samples.

Results

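The Sim4-Mis6 complex genes described here are 6 of the 4869 gene names on spotted *S. pombe* ORF arrays: *mis6* (printed as mis6+), *sim4* (SPBC18E5.03c), *mis17* (SPBC776.19, listed as SPBC21.01 in the current gene table), *fta2* (SPAC1783.03), *fta3* (SPBP8B7.12c) and *fta6* (SPAC11H11.05c). They were taken by gene ID as subunits of 1 kinetochore complex, and the set was chosen by values measured on these arrays, since the *fta3* ratios had already been seen to lie past 1.5-fold in both mutants. Those ratios and those of the other members are therefore given as a description, with no test. All 6 names were found once on the array, each printed in a pair of neighbouring spots.

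RNA from logarithmically growing cells carrying *sim3-205* or *sim3-143*, missense alleles of *sim3*, was compared with RNA from wild-type cells on 4 arrays, 2 per allele. Mutant cDNA carried Cy3 on replicate 1 and Cy5 on replicate 2, with wild-type cDNA in the opposite dye. The remaining strain genotype, the temperature, and whether arrays share RNA extracts or wild-type RNA are not given in the sources used here, so n = 2 counts arrays, and the spread between them may be technical. Within each allele the array and its dye orientation cannot be told apart. With 2 arrays an allele, their number sets the precision, and arrays have no read depth.

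The Sim4-Mis6 complex is part of the inner kinetochore of fission yeast. It sits on the CENP-A (Cnp1) chromatin of the central domain of the centromere throughout the cell cycle and corresponds to much of the constitutive centromere-associated network of vertebrates. Mis6 is needed to load new CENP-A, and cells lacking Mis6 or Sim4 function lose CENP-A and silencing at the central core. Sim3 is a histone chaperone related to NASP that binds CENP-A and helps deliver it to the same chromatin. The question put to the arrays here is how much message of each subunit the *sim3* mutants held relative to wild-type.

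Each value below is a log2 ratio of mutant over wild-type for 1 spot, called a data point, so that a gene has 4 data points per allele. A positive value means more signal in the mutant. A gene counts as past 1.5-fold (0.585 on the log2 scale) where at least 3 of its 4 data points lie beyond that value in one direction. In *sim3-205*, 1 of the 6 members was past 1.5-fold, *fta3*, which was higher, while the background over 4854 genes was 3.21% (2.6% higher and 0.618% lower). In *sim3-143*, 1 of the 6 was past it, again *fta3* and higher, against 3.49% of 4837 genes (2.11% higher and 1.39% lower). Because *fta3* was seen before the members were chosen, its 2 calls were carried in by the choice and nothing is read from these counts. The other 5 members were past 1.5-fold in neither allele.

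**Figure D1:**
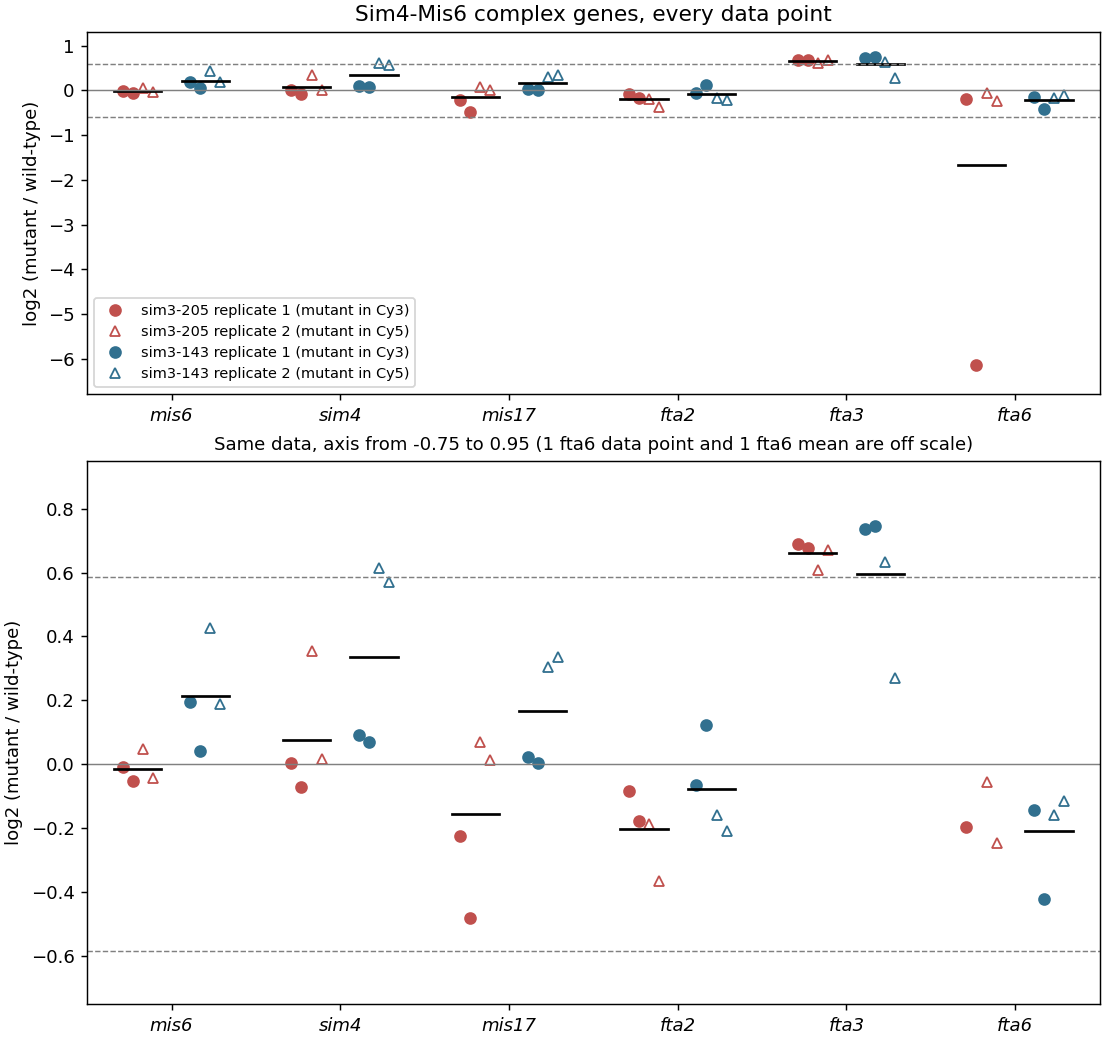
Log2 ratio of mutant over wild-type (y axis) for every data point of the 6 genes, with filled circles for replicate 1, open triangles for replicate 2 and black bars for the mean of the arrays. Dashed lines mark 1.5-fold, and the lower panel repeats the upper one on a narrower axis. The *fta3* points stand above the line except 1 at 0.27, and 1 *fta6* point stands at -6.15.

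A ratio belongs to a gene only if its spot does. Each spot took the name that *sim3-143* replicate 1 gives to its place in the grid, since the names written in the files of *sim3-205* replicate 1 and *sim3-143* replicate 2 do not follow the printed spots. Spot brightness, the sum of both dyes over background, had a Spearman correlation with *sim3-143* replicate 1 of 0.942 on *sim3-205* replicate 1 and 0.918 on *sim3-143* replicate 2 when spots were matched by position. Matched by the written names the correlations were 0.0032 and 0.00493. The *fta3* spots show the same thing for a single gene. They lay between the 80.5th and 86.6th percentile of brightness on *sim3-205* replicate 2 and *sim3-143* replicate 1, and by position between the 84.0th and 91.7th on the other 2 arrays, where the written name would have put them between the 17.1th and 22.1th. *sim3-205* replicate 2, deposited under another platform record than the other arrays, carries the same name at 11518 of 11520 positions. Its brightness correlation by position was 0.8.

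Of the 6 genes, *fta6* alone lies in a grid with unrelated dyes, and it does so on 1 array. Its grid, the 25th of 32, had a Spearman correlation between Cy3 and Cy5 of 0.162 on *sim3-205* replicate 1, against 0.965 on *sim3-205* replicate 2 and 0.977 and 0.942 on *sim3-143* replicates 1 and 2. It is 1 of 3 such grids on that array, which ranged from -0.23 to 0.162, while the other grids of the array ranged from 0.812 to 0.946. The *mis6* (grid 14), *sim4* (grid 20), *mis17* (grid 11) and *fta3* (grid 18) spots lie in grids with correlations of 0.866 or more on every array, and none of these 4 genes lies in a grid with unrelated dyes. Nor does *fta2* (grid 12), although its grid had 0.693 on *sim3-143* replicate 2, the lowest of that array. No member spot carried a code from the image software, and every member exceeded the 95th percentile of empty spots in both dyes at all 8 of its spots.

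*fta3* encodes a subunit named for its association with Sim4 and Mal2 and is the counterpart of vertebrate CENP-H. Its data points in *sim3-205* were 0.69 and 0.68 on replicate 1 and 0.61 and 0.67 on replicate 2. In *sim3-143* they were 0.74 and 0.75 on replicate 1 and 0.63 and 0.27 on replicate 2. All 8 lay above 0, and the point at 0.27 was the only one below 1.5-fold. The mean was 0.66 ± 0.03 in *sim3-205* and 0.60 ± 0.20 in *sim3-143* (SD, n = 2 arrays each), which are 1.58-fold and 1.51-fold, with limma standard errors of 0.16 in both.

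The scanner values behind these ratios were well above background. On *sim3-205* replicate 1 the *fta3* spots read 6619 and 7238 in the mutant and 2381 and 2636.5 in the wild-type before background and dye correction, and on *sim3-205* replicate 2 they read 3799 and 4815 in the mutant and 2109 and 2618 in the wild-type. On *sim3-143* replicate 1 they read 7102 and 6580.5 in the mutant and 4680 and 4319.5 in the wild-type. On *sim3-143* replicate 2 they read 6499.5 and 4805.5 in the mutant and 5690 and 5270.5 in the wild-type. The second spot of that last array is the 1 case in which the raw wild-type value was the higher, and it is the data point at 0.27. Signals ranged from 17.4 to 61.3 times the local background.

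Among all 4832 genes measured on 4 arrays, the *fta3* mean lay at the 94.1th percentile in *sim3-205* and the 95.4th in *sim3-143*. It was above 0 on all 4 arrays, as were 11.6% of genes, and past 1.5-fold higher in both alleles, as were 36 of 4822 genes (0.747%). Since *fta3* was chosen with these ratios already seen, its percentiles and these shares only describe it, and nothing is read from them. The call of *fta3* past 1.5-fold is close to its limit. With print-tip loess its mean in *sim3-205* was 0.74 but 2 of 4 points were past 1.5-fold, and with median centring 2 of 4 points were past it in each allele (means 0.78 in *sim3-205* and 0.50 in *sim3-143*). Without *sim3-143* replicate 1 the call in *sim3-143*, which then needed both remaining points, was lost, at a mean of 0.45. The *fta3* ratio was above 0 on all 4 arrays in each of the 9 settings that name spots by position.

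**Figure D2:**
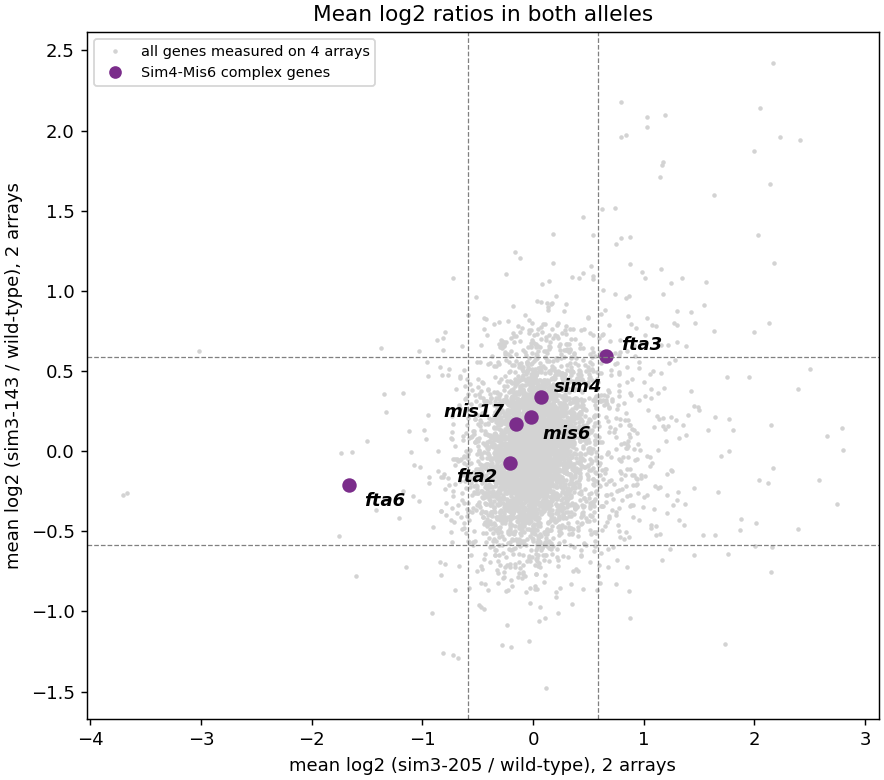
Mean log2 ratio of *sim3-205* over wild-type (x axis) against that of *sim3-143* over wild-type (y axis), 2 arrays each, for 4832 genes (grey) and the 6 members (purple). Dashed lines mark 1.5-fold. The *fta3* point lies beyond the line in both alleles at 0.66 and 0.60, 4 members lie within it, and *fta6* lies far to the left at -1.66.

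*mis6* encodes the counterpart of CENP-I, the subunit best known for loading CENP-A. Its data points in *sim3-205* were -0.009 and -0.05 on replicate 1 and 0.05 and -0.04 on replicate 2. In *sim3-143* they were 0.20 and 0.04 on replicate 1 and 0.43 and 0.19 on replicate 2. The *sim3-205* points straddled 0 and the *sim3-143* points were all above it. The *mis6* spots were dim, with signals of 3.64 to 7.69 times background. The means were -0.014 ± 0.024 in *sim3-205* and 0.21 ± 0.13 in *sim3-143* (SD, n = 2 arrays each), so that the *mis6* signal was 0.99-fold and 1.16-fold that of wild-type. With median centring the means were -0.40 in *sim3-205* and 0.41 in *sim3-143*, and with the deposited ratios moved back to their spots, on 1 array each, they were -0.25 and 0.41. The arrays of the alleles did not overlap, at -0.03 and 0.003 for *sim3-205* against 0.12 and 0.31 for *sim3-143*, which was also true of 39.4% of all genes. The difference, *sim3-205* minus *sim3-143*, was -0.23 with a 95% interval of -0.77 to 0.32 from limma.

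*sim4* encodes the counterpart of CENP-K and, like *sim3*, was found through loss of silencing at the central core. Its data points in *sim3-205* were 0.005 and -0.07 on replicate 1 and 0.35 and 0.015 on replicate 2. In *sim3-143* they were 0.09 and 0.07 on replicate 1 and 0.61 and 0.57 on replicate 2. The array with the mutant in Cy5 was thus the higher in both alleles. In *sim3-143* the arrays stood far apart while the spots of each array lay close together. The means were 0.08 ± 0.15 in *sim3-205* and 0.34 ± 0.36 in *sim3-143* (SD, n = 2 arrays each). The *sim3-143* mean, 1.26-fold, was the second highest of the 6 members, but 1 of its 4 points was past 1.5-fold and its SD was larger than the mean. It was 0.18 with print-tip loess, and median centring turned the *sim3-205* mean to -0.17.

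*mis17* encodes a subunit that, like Mis6, is needed for CENP-A at the centromere. Its data points in *sim3-205* were -0.22 and -0.48 on replicate 1 and 0.07 and 0.012 on replicate 2. In *sim3-143* they were 0.022 and 0.003 on replicate 1 and 0.31 and 0.34 on replicate 2. The arrays of *sim3-205* fell on either side of 0. The means were -0.16 ± 0.28 in *sim3-205* and 0.17 ± 0.22 in *sim3-143* (SD, n = 2 arrays each), and both SDs exceeded the means. With the deposited ratios moved back, on 1 array each, they were -0.52 in *sim3-205* and 0.34 in *sim3-143*. Their difference, *sim3-205* minus *sim3-143*, was -0.32 with a 95% interval of -0.98 to 0.33, and the arrays of the alleles overlapped.

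*fta2* encodes another subunit named for its association with Sim4 and Mal2. Its data points in *sim3-205* were -0.09 and -0.18 on replicate 1 and -0.19 and -0.37 on replicate 2. In *sim3-143* they were -0.06 and 0.12 on replicate 1 and -0.16 and -0.21 on replicate 2. The *sim3-205* points were all below 0, and 1 of the *sim3-143* points was above it. The means were -0.20 ± 0.10 in *sim3-205* and -0.08 ± 0.15 in *sim3-143* (SD, n = 2 arrays each), and neither allele had a point past 1.5-fold. The *fta2* spots were dim, with signals of 3.15 to 7.09 times background, as were those of *mis6* and of *fta6* (1.79 to 6.94 times). The *fta2* mean in *sim3-205* depended on the background treatment and on the dye normalization. It was -0.55 with plain background subtraction, -0.38 with no background correction and -0.74 with median centring of the dyes, which also turned the *sim3-143* mean to 0.20.

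*fta6* encodes a further subunit of the complex. Its data points in *sim3-205* were -0.20 and -6.15 on replicate 1 and -0.05 and -0.25 on replicate 2. In *sim3-143* they were -0.14 and -0.42 on replicate 1 and -0.16 and -0.11 on replicate 2. All points but 1 lay between -0.42 and -0.05, and that one set the *sim3-205* mean of -1.66 ± 2.14 (SD, n = 2 arrays) apart from the *sim3-143* mean of -0.21 ± 0.10. Without spots whose local background exceeded 5 times the median of the file, an alternative chosen after this spot was seen, the *sim3-205* mean was -0.17 from 3 data points. Without the grids of unrelated dyes it was -0.15, from replicate 2 alone.

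The low *fta6* point came from a high wild-type signal. Its spot read 550 in the mutant channel, Cy3, over a background of 115, and 25976.5 in the wild-type channel, Cy5, over a background of 4952.5. The neighbouring *fta6* spot read 513 in Cy3 and 1111 in Cy5, with a Cy5 background of 621, where the median Cy5 background of the grid was 182.75. High Cy5 values surrounded it. The second spot of *sap114* in the row before and that of *ade1* in the row after were saturated in Cy5 at 65535, and gave log2 ratios of -6.70 and -3.89. The next spot along the row, of *sst6*, had a Cy5 background of 11406.5 and a ratio of 4.21, and the spot of *rpc11* next to that of *sap114* had a Cy5 background of 65535 and a ratio of 6.81. In all, 17 of the 360 spots of the grid had a Cy5 background over 1000 on this array, against 0 on each of the other 3 arrays. The ratio the authors deposited for this *fta6* spot, moved back to its position, was 5.44, opposite in sign to -6.15, and that for the neighbouring spot was -1.18. What raised the Cy5 values in this stretch of the grid was not tested.

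**Figure D3:**
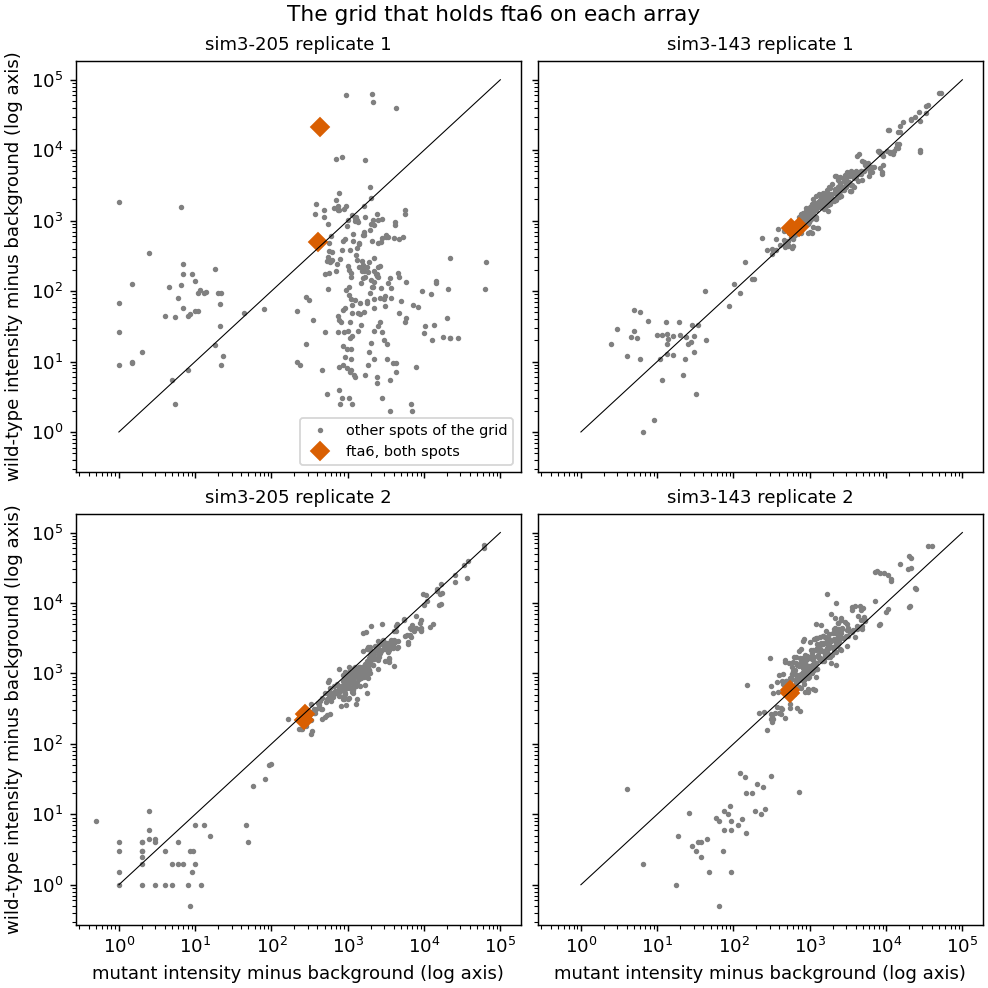
Intensity minus local background of the mutant (x axis) and the wild-type (y axis), both log axes, for the spots of the grid that holds *fta6*, on each array, with equality as the line. Spots at or below 0 in either dye cannot be drawn (93 of 360 on *sim3-205* replicate 1 and 26 to 34 on the other arrays). The dyes follow each other on 3 arrays and not on *sim3-205* replicate 1, where 1 *fta6* spot (orange) stands at a wild-type value far above the line.

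Set side by side, the members shared no direction. In *sim3-205* their median was -0.09, beside 0.008 for all genes, and in *sim3-143* it was 0.19, beside -0.010. The mean ratios in *sim3-205* ran from *fta6*, *fta2* and *mis17* below 0 through *mis6* and *sim4* near 0 to *fta3*. In *sim3-143* the order was *fta6*, *fta2*, *mis17*, *mis6*, *sim4* and *fta3*, and neighbours in that order differed by less than the SD of at least 1 of them, except *fta2* and *mis17*, whose SDs were 0.15 and 0.22. On the 4 arrays, 1 of the 6 genes was above 0 throughout (*fta3*) and 1 below 0 throughout (*fta6*, whose sign held in 6 of the 9 settings that name spots by position), as were 11.6% and 10.5% of all genes. Replicate 2, with the mutant in Cy5, stood above replicate 1, with the mutant in Cy3, in both alleles for *mis6*, *sim4*, *mis17* and *fta6*. These are 4 of the 6, and the same held for 28.8% of all genes.

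Between the alleles the members' differences, *sim3-205* minus *sim3-143*, were -0.23 for *mis6*, -0.26 for *sim4*, -0.32 for *mis17*, -0.13 for *fta2*, 0.07 for *fta3* and -1.45 for *fta6*. That of *fta6* was set by its point at -6.15, and it ran from -2.83 to 1.18 over the 9 settings that name spots by position. The 95% limma interval for *fta3* ran from -0.51 to 0.64. It is given as a measure of spread and not as a test, because *fta3* was seen high in both alleles before the members were chosen. Across all 4832 genes the limma fit with Benjamini-Hochberg adjustment called 0 genes at 0.05 in each of the 3 comparisons. An unadjusted p below 0.05 was reached by 244 genes (5.05%) between the alleles, 425 (8.8%) in *sim3-205* and 425 (8.8%) in *sim3-143*. The smallest adjusted p from limma was 0.705 between the alleles, 0.317 in *sim3-205* and 0.115 in *sim3-143*.

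The rest of the kinetochore gave a frame for the 6 genes. Of 32 genes in 4 lists of other kinetochore subunits, 28 were matched on the array (*mis15*, *dad3*, *dad4* and *spc19* were not), and 0 of the 28 were past 1.5-fold in either allele, beside 3.21% of all genes in *sim3-205* and 3.49% in *sim3-143*. By the mean of the 4 points the count was 2 in *sim3-205* (*fta5* and *nnf1*), beside 463 of 4854 genes in all. In *sim3-143* it was 2 (*mis12* and *spc24*), beside 403 of 4837. With background subtraction it was 1 in *sim3-143* (*mis12*), beside 192 genes in all. With an array of the allele left out, both remaining points were required. In *sim3-205* the count was then 1 without its replicate 1, beside 358 genes in all, and 3 without its replicate 2, beside 617. In *sim3-143* it was 3 without its replicate 1, beside 801, and 0 without its replicate 2, beside 214. The median of the 28 genes was 0.007 in *sim3-205* and 0.13 in *sim3-143*. Among 7 genes listed here as other subunits of the Sim4 complex, the highest and lowest means in *sim3-205* were those of *fta5* (0.79 ± 1.14) and *fta7* (-0.55 ± 0.05), and in *sim3-143* those of *fta1* (0.22 ± 0.15) and *fta7* (-0.27 ± 0.50), all SD over 2 arrays. The current gene table names *fta5* (SPAC1F8.06) *pfl8*, so its place among the subunits rests on the older name. The *fta5* probe lies in a grid with unrelated dyes on *sim3-205* replicate 1, where it stood at 1.60, against -0.012 on replicate 2. The *fta7* data points in *sim3-205* lay between -0.67 and -0.50, all below 0, with 1 of 4 past 1.5-fold.

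The list of other inner kinetochore genes held 5, among them *cnp1*, which encodes CENP-A itself. Its mean was -0.011 ± 0.12 in *sim3-205* and 0.11 ± 0.28 in *sim3-143* (SD, n = 2 arrays each), and no data point was past 1.5-fold. In that list the means ran from -0.15 (*cnp20*, CENP-T) to 0.18 (*mhf2*, CENP-X) in *sim3-205*, and from -0.32 (*cnp3*, CENP-C) to 0.30 (*mhf1*, CENP-S) in *sim3-143*. Among 10 outer kinetochore genes they ran from -0.60 (*nnf1*) to 0.29 (*mis12*) in *sim3-205* and from -0.21 (*sos7*) to 0.92 (*mis12*) in *sim3-143*. The *mis12* arrays stood far apart, at -0.44 and 1.03 in *sim3-205* and 0.55 and 1.29 in *sim3-143*, and 2 of 4 points were past 1.5-fold in each allele. Among 6 genes of the DASH complex, which couples kinetochores to microtubules, the means ran from -0.30 (*ask1*) to 0.19 (*dad5*) in *sim3-205* and from 0.06 (*dam1*) to 0.36 (*ask1*) in *sim3-143*.

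**Figure D4:**
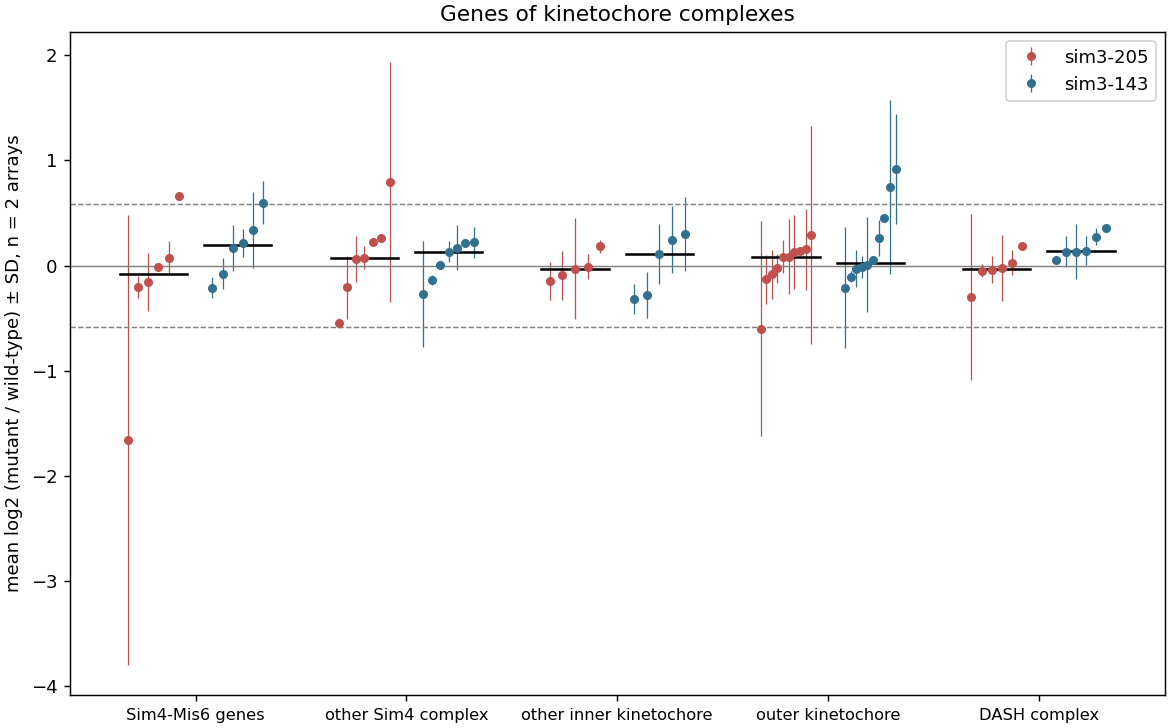
Mean log2 ratio of mutant over wild-type (y axis, error bars SD, n = 2 arrays) for each gene of the Sim4-Mis6 set and of 4 other kinetochore lists, *sim3-205* in red and *sim3-143* in blue, with the list median as a black bar and 1.5-fold as dashed lines. Most genes lie within 1.5-fold, and the longest error bars are those of *fta6*, *fta5*, *mis12* and *nnf1* in *sim3-205*, whose arrays stood furthest apart.

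*sim3* itself, in which the alleles are missense mutations, stood at -0.13 ± 0.19 in *sim3-205* and 0.11 ± 0.21 in *sim3-143* (SD, n = 2 arrays each), with no data point past 1.5-fold. A missense mutation need not change the amount of message, so these values do not check the labels.

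Spotted ORF probes carry no strand, so a signal from an overlapping gene could not be separated from that of a member. In the current annotation *fta3* overlaps *nxt3*, a long noncoding RNA and a small nucleolar RNA, *snoR47*. Among protein-coding genes, *mis6* overlaps SPAC1687.21, *mis17* overlaps SPBC21.03c and *fta2* overlaps *hst4*. *sim4* overlaps a long noncoding RNA alone, and *fta6* overlaps none. The *nxt3* probe gave means of -0.03 in *sim3-205* and -0.43 in *sim3-143*, beside 0.66 and 0.60 for *fta3*. A contribution of overlapping transcripts to the *fta3* signal was not tested. On the other side of *fta3*, *vac7* gave -0.06 in *sim3-205* and -0.17 in *sim3-143*. Of the 12 protein-coding neighbours of the 6 genes, 0 were past 1.5-fold in either allele, beside 3.21% of all genes in *sim3-205* and 3.49% in *sim3-143*. The highest means among them were those of *rrp7*, next to *mis17*, in *sim3-205* (0.60, in a grid with unrelated dyes) and of SPBC21.03c in *sim3-143* (0.63), where *mis17* stood at 0.17.

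By Euclidean distance over the 4 arrays, the gene nearest to *mis6* was *rik1* (distance 0.032). *sim4* was nearest to *med6* (0.072), *ayr1* and *pom152*, *mis17* to *gmh1* (0.073), *mcl1* and SPAC27F1.05c, and *fta2* to *ubc6* (0.092), *pmt2* and *mot2*. *fta3* was nearest to *htb1*, at a distance of 0.237, followed by SPAC977.14c at 0.30 and *dao1* at 0.33. The *htb1* ratios were 0.49 and 0.58 on the *sim3-205* arrays and 0.68 and 0.35 on the *sim3-143* arrays, beside 0.68 and 0.64, and 0.74 and 0.45, for *fta3*. *fta6* was nearest to *sap114* (0.304), printed in the row before it in the same grid, whose *sim3-205* replicate 1 value of -3.21 stands beside -3.17 for *fta6*. These distances describe 4 arrays that share a dye design, of which *sim3-205* replicate 2 was deposited under another platform record.

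**Figure D5:**
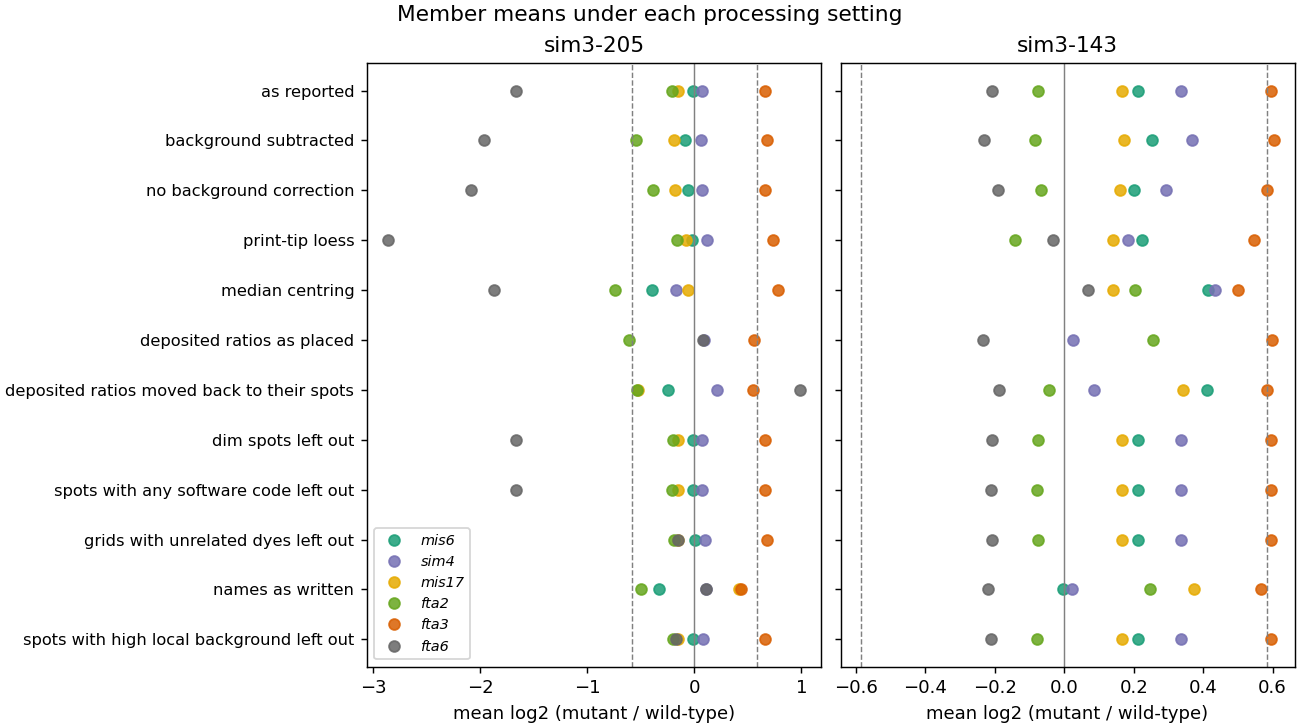
Mean log2 ratio of mutant over wild-type (x axis) of the 6 genes under the reported processing and each alternative that keeps all 4 arrays (rows), *sim3-205* on the left and *sim3-143* on the right on a narrower axis, with 1.5-fold as dashed lines. In these rows the *fta3* mean lies between 0.43 and 0.78 in *sim3-205* and between 0.50 and 0.60 in *sim3-143*, while the *fta6* mean in *sim3-205* runs from -2.86 to 0.99. Genes with no deposited ratio have no point in the deposited rows.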

How the data were processed

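The 4 arrays were *S. pombe* ORF arrays hybridized with cDNA of mutant and wild-type cells in Cy3 and Cy5. The authors deposited 8 scanner files, 1 per array and spot of each probe, holding unnormalized median intensity values for spots and local backgrounds in both dyes. The authors also deposited tables of log2 ratios made in GeneSpring with Lowess, which ran as mutant over wild-type when set against the intensities and served as an alternative. Their background treatment is not given in the sources used here, and the median of their ratios was -0.0634 on *sim3-205* replicate 1, 0.0086 on its replicate 2, 0.0029 on *sim3-143* replicate 1 and 0.0718 on its replicate 2. On *sim3-205* replicate 1 and *sim3-143* replicate 2 they follow the written names, so they were also moved back to their spots.

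With limma 3.58.1 (R 4.3.3), intensities of every spot file were corrected by normexp (offset 50), normalized by loess (span 0.3) and turned to mutant over wild-type. The layout of *sim3-143* replicate 1 named all spots, a choice that rests on the intensities. 201 names were left out, of empty, control, intergenic, intronic or missing probes and of probes whose nature was not clear. A name of the latter kind is listed in the study's supplement as a gene, an aminomethyltransferase precursor. Also left out were 8 to 60 spots per array with code 1 or 4 of the image software and 73 spots with a Cy3 value of 0. Of 4869 names, 4651 (95.5%) were found in RefSeq genes of ASM294v3, which served for symbols, overlaps and gene order. Each gene took the mean of its 2 spots per array, and lmFit and eBayes were run on the 4 arrays with a coefficient per allele (2 residual degrees of freedom), with p-values adjusted over 4832 genes. Dyes of a grid counted as unrelated where the Spearman correlation of net intensities was below 0.3. Scripts were tested on simulated data. Figures were drawn with matplotlib 3.10.9 under Python 3.11.15.

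The members and the kinetochore lists were chosen with earlier results of these data known. Named were the 6 members, the highest and lowest gene of each list in each allele and any past 1.5-fold, the 3 nearest genes to each member, printed neighbours where the dyes are unrelated, and chromosome neighbours; *cnp1*, *sim3* and the overlapping genes were added. The alternatives were other background corrections, dye normalizations and call rules, the deposited ratios, filters on dim or coded spots, unrelated grids left out, names as written, each array left out, separate fits per allele, an added dye term and a looser threshold of 0.1. Sequences of the members are not used here.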

Additional observations from a re-analysis of the deposited data

How the results depend on the processing

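*fta3* was past 1.5-fold in 9 of 14 alternatives that keep all arrays, in each allele. The count of members past 1.5-fold in *sim3-205* was 0 with 2-fold in place of 1.5-fold, median centring, print-tip loess, deposited ratios moved back to their spots and names as written, and 2 (*fta3* and *fta6*) by the mean of the 4 points. In *sim3-143* it was 0 with 2-fold, all 4 points required, median centring, deposited ratios as placed and names as written. With an array of the allele left out, both remaining points had to be past 1.5-fold. The count was then 1 without either array in *sim3-205*. In *sim3-143* it was 0 without its replicate 1 and 1 without its replicate 2. Over all members, alleles and alternatives that keep all arrays, 28 of 128 means moved by more than 1 SD, most of them with median centring (7 of 12), the deposited ratios moved back (6 of 12) and names as written (6 of 12). The SD is that of the gene's own 2 arrays, from 0.024 for *mis6* to 2.14 for *fta6*, both in *sim3-205*. The count therefore leaves out large shifts of *fta6* in *sim3-205*, such as that from -1.66 to -0.15 without grids of unrelated dyes. Among settings that name spots by position and keep all arrays, the sign of a mean turned for *sim4* in *sim3-205* (-0.17) and for *fta2* (0.20) and *fta6* (0.07) in *sim3-143* with median centring, for *mis6* in *sim3-205* (0.007) without grids of unrelated dyes, and for *fta6* in *sim3-205* (0.99) with the deposited ratios moved back. With an array of the allele left out it turned for *mis17* (0.04) and *mis6* (0.003) in *sim3-205* without its replicate 1, for *sim4* (-0.03) in *sim3-205* without its replicate 2 and for *fta2* (0.03) in *sim3-143* without its replicate 2. The cause was not tested.

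limma's counts of 0 became 39 in *sim3-143* with each allele fitted alone and 9 with grids of unrelated dyes left out. With an array left out they ranged from 0 to 335 in *sim3-205*, from 0 to 40 in *sim3-143* and from 0 to 306 between alleles, where the highest counts (335 and 306) were those without *sim3-205* replicate 2 and the lone array is assumed to vary like the others. The number of genes past 1.5-fold was 156 in *sim3-205* and 169 in *sim3-143*. It was 32 and 26 with 2-fold, 76 and 100 with all 4 points required, 463 and 403 by the mean of the points, 93 and 38 with deposited ratios as placed, 78 and 64 with these moved back, and 73 and 35 with names as written, *sim3-205* before *sim3-143* each time. With print-tip loess it was 98 in *sim3-205*. With an array of the allele left out, the rule became both of the 2 remaining points, so these counts are not like for like. In *sim3-205* the number was then 358 without its replicate 1 and 617 without its replicate 2. In *sim3-143* it was 801 without its replicate 1 and 214 without its replicate 2. The labels carry no replicate numbers, so no arrays were paired by number. A limma fit with dye orientation as a term, which sets together the arrays of both alleles with the same orientation, called 0 genes in each comparison, with 473 between alleles, 611 in *sim3-205* and 686 in *sim3-143* at an unadjusted p below 0.05.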
